A study of Mus musculus with 12 samples.

Results

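The genes described here carry glucose from the cell surface to pyruvate, lactate, glycogen and the pentose phosphates, together with the pyruvate dehydrogenase kinases (PDK) that keep pyruvate from becoming acetyl-CoA inside mitochondria. They were chosen by symbol: 40 genes, each found as 1 Ensembl ID among the 48709 IDs of the count tables. After genes with low counts were left out, 39 of the 40 were tested. Ppp1r3c, which encodes a glycogen-targeting subunit of protein phosphatase, was not, with 0 or 1 read per library and 3 reads in all 12.

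The cells were cultured mouse embryonic fibroblasts (MEFs) of the C57BL/6 strain, labelled either WT or TAZKo. TAZKo stands for loss of Taz, the gene of tafazzin, an enzyme that remodels the mitochondrial lipid cardiolipin. Each genotype was kept in normoxia or in hypoxia for 24 hours in a hypoxia workstation, with 3 RNA sequencing libraries in each of the 4 groups, and all groups grew in the same medium. The oxygen level, the origin of the TAZKo cells and whether replicates were separate cultures are not stated, so p-values measure only the spread between these libraries, which may be technical.

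Glucose enters fibroblasts through facilitative transporters and is trapped by hexokinase, after which the glycolytic enzymes turn it into pyruvate. Lactate dehydrogenase then returns pyruvate to lactate, or pyruvate dehydrogenase sends it to the citric acid cycle unless a PDK isoform has phosphorylated and silenced that enzyme. Low oxygen is known to stabilise the transcription factor HIF-1, which raises many genes of this route, and several steps have isoforms that differ in how strongly they answer. Glycogen synthase and the branching enzyme store glucose, glycogen phosphorylase releases it, and the pentose phosphate branch feeds NADPH and ribose synthesis.

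Libraries held 21039451 to 31204510 counts and 20378 to 21940 detected IDs. Levels are CPM, read counts divided by the library size after TMM scaling and put on a scale on which each library sums to about 1000000, and 3 counts, the floor used here for a gene seen little or not at all, were worth 0.096 to 0.143 CPM. Such floors and intervals cover counting error only. Taz itself was not lower in the libraries labelled TAZKo: its mean was 42.2 CPM against 34.6 in WT normoxia and 33.8 against 25.1 in hypoxia, and it was called higher in both conditions (log2 0.29, adjusted p = 0.0139; log2 0.43, adjusted p = 0.00112). The genotype names below are therefore those of the labels. WT normoxia library 1 stood apart, with a rank correlation of 0.989 with its own group where every other pair within a group had at least 0.9946. Of 10 fibroblast markers 9 reached 1 CPM in each group (Thy1 did not), with a summed level of 10386 to 13300 CPM, while Pou5f1, Adgre1 and Hbb-bt were at 0 in every library. Other markers of those lists were present: Cd68 averaged 3.06 and 7.37 CPM in WT and 3.8 and 6.52 in TAZKo normoxia and hypoxia and was called higher in hypoxia in both (log2 1.27 and 0.77), and Nanog averaged 1.22 to 2.33 CPM. Fabp4, an adipocyte marker, rose from 0.431 to 3.08 CPM in WT and from 0.185 to 0.946 in TAZKo cells (log2 2.83 and 2.31). It was the only 1 of 6 adipocyte markers with enough reads to be tested. Cidec was at 0 in both normoxia groups and in TAZKo hypoxia, where Plin1 was also at 0. Krt18 made most of an epithelial sum of 97.9 to 152 CPM. The part of such cells in the changes below was not tested. In bulk libraries fewer cells of a kind and less RNA per cell cannot be told apart.

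Some members share sequence with pseudogenes, and how reads that match several places were counted is not given in the sources used here. Of the 50-base words in the coding transcripts, 82.5% to 94.6% also occurred in other annotated genes for Gapdh, 58.1% to 85.5% for Eno1, 68% for Pgk1, 41.5% for Pgam1, 11.8% to 39.3% for Pkm and 15.3% to 35.1% for Ldha. Those shares were highest for Gapdh, the enzyme with the most retrocopies. Words were also shared by Pfkfb2 (25.1% to 75.1%), Gpi1 (19.3% to 45.1%), Pfkm (up to 39.7%) and Ldhb (15.9% to 28.7%), and less by Aldoa, Tpi1 and Taldo1. The tables listed 29 close copies of Gapdh, each with a share of at least 0.5 of its words in the parent, and these held 2692 counts over the 12 libraries against 51775 for Gapdh. The 2 copies of Eno1 held 107 counts against 217087, and the 2 of Pgk1 held 71 against 28330. Copies were summed with their parents for 4 genes, Gapdh, Eno1, Pgk1 and Pgam1. This left each of their calls in place and moved no log2 difference of theirs by more than 0.03. The listed copy of Pfkfb2 overlaps it on the chromosome and was not summed. No copy of Pkm, Ldha, Gpi1, Pfkm or Ldhb met that share, so nothing was summed for them. Reads of Pfkfb2, Pfkm and Ldhb may be missing from their isoform shares. The levels of Gapdh, Pgk1 and Pgam1 are not set against those of other genes below, since an unknown part of their reads may not have been counted.

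The promoters of 8 members are shown first, because the results return to them: 5 members that rose over 2-fold in both genotypes (Slc2a1, Pgk1, Ldha, Pdk1 and Gbe1), Pdk2, which fell, and the 2 genes nearly silent in TAZKo cells. They are RefSeq windows on GRCm38.p6, from 250 bases before to 50 bases after a transcription start, written 5′ to 3′ on the strand of the gene. Capitals mark exact matches of ACGTG or GCGTG on either strand, the core letters bound by HIF-1, so that a match on the other strand appears as CACGT or CACGC, and CACGTG holds ACGTG on both strands at once. Slc2a1 (ENSMUSG00000028645, chr4:119108495-119108794, plus strand) encodes the transporter GLUT1, Pgk1 (ENSMUSG00000062070, chrX:106186850-106187149, plus strand) phosphoglycerate kinase, Ldha (ENSMUSG00000063229, chr7:46845554-46845853, plus strand) lactate dehydrogenase A, Pdk1 (ENSMUSG00000006494, chr2:71872974-71873273, plus strand) and Pdk2 (ENSMUSG00000038967, chr11:95041322-95041621, minus strand) kinases of pyruvate dehydrogenase, Gbe1 (ENSMUSG00000022707, chr16:70313699-70313998, plus strand) the glycogen branching enzyme, Ldhb (ENSMUSG00000030246, chr6:142507908-142508207, minus strand) lactate dehydrogenase B and Pygl (ENSMUSG00000021069, chr12:70227634-70227933, minus strand) the liver isoform of glycogen phosphorylase. Their windows read as follows.
Slc2a1: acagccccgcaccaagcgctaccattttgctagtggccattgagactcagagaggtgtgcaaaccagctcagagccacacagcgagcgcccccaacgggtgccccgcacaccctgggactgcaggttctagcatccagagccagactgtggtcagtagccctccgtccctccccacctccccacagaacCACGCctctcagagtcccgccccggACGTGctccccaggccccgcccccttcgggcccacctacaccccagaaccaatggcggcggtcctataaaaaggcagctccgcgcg
Pgk1: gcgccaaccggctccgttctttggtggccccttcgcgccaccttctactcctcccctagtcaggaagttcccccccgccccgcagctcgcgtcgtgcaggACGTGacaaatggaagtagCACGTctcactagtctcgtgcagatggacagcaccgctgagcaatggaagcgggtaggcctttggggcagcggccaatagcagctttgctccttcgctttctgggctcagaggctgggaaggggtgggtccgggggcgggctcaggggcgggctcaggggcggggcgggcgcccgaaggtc
Ldha: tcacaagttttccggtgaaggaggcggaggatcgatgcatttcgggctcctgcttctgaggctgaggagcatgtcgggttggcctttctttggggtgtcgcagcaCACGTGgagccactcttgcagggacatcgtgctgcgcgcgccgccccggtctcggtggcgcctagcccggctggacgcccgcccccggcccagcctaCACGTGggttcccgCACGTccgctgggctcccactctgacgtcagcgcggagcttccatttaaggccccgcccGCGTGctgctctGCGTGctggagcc
Pdk1: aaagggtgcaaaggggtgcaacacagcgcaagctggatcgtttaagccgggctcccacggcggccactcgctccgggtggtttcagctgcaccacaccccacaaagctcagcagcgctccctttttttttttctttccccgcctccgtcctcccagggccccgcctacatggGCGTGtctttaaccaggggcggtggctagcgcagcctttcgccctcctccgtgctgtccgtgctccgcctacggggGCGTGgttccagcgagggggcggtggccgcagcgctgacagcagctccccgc
Gbe1: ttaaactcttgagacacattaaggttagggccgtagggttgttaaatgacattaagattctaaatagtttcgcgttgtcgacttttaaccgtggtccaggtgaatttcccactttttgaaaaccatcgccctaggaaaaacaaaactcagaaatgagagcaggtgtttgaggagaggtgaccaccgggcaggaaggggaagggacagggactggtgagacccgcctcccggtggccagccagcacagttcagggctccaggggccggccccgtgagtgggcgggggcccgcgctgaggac
Pdk2: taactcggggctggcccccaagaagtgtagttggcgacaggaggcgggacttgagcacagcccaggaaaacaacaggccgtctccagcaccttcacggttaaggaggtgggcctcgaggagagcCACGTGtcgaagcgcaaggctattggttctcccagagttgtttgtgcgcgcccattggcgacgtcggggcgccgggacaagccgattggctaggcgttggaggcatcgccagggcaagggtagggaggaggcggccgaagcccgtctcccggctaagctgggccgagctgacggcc
Ldhb: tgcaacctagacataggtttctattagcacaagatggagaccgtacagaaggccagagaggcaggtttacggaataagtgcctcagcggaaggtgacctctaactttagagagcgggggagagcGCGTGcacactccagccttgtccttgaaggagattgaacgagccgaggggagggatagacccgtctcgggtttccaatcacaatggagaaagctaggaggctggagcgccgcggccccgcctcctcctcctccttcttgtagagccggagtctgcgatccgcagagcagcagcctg
Pygl: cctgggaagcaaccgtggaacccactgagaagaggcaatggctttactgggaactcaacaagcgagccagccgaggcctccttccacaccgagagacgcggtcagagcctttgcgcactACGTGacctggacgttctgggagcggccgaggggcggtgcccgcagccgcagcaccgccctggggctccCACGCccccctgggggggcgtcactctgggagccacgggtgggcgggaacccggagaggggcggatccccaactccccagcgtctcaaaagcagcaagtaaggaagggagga

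Ldha had the densest set of the 8, with 5 matches of ACGTG, of which 4 came from 2 copies of CACGTG whose ACGTG on the printed strand began 144 and 47 bases before the start, and 2 matches of GCGTG inside the transcribed part. Pgk1 held 2 matches of ACGTG, 150 and 131 bases before its start, on opposite strands. Slc2a1 held ACGTG 36 bases before its start, Pdk1 held GCGTG at 78 and 2 bases before it, and the Gbe1 window held neither. The kinase Pdk2, whose transcript fell in hypoxia, also held CACGTG, with ACGTG on the printed strand beginning 125 bases before its start. Windows were found for 37 of the 40 members. Among the 18 members that rose at least 2-fold in both genotypes (below), 14 had a window with either motif, which is 77.8%, and among the other members with a window 17 of 19 had one, which is 89.5%. Over all 27025 genes of the same table the share was 46.7%, and over all 32851 windows 43.8%, with 19.6% for ACGTG and 32.4% for GCGTG. A match is a string of letters and not a site.

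Hypoxia raised most of the glycolytic chain in both genotypes. In WT cells 26 of the 39 tested members rose and 4 fell, or 76.9% called, where 51.0% of all 14408 genes tested were called (26.0% higher, 25.0% lower). A call is an adjusted p under 0.05 in edgeR's quasi-likelihood test, adjusted by Benjamini-Hochberg over all genes tested, and every adjusted p below is of that kind. In TAZKo cells 24 members rose and 4 fell, or 71.8%, against 43.8% of all genes (22.2% higher, 21.6% lower). The median member changed by log2 1.18 in WT and 0.51 in TAZKo cells, with medians of 0.01 and -0.01 over all genes. The members were chosen as the glucose route, with results of these data known, so these shares describe the list and carry no test of it.

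Large rises were frequent. At least 2-fold rises were called for 20 members in WT, where 8.15% of all genes did so, and for 18 in TAZKo cells, where 6.38% did. All 18 of the latter were among the 20 of the former: Slc2a1, Hk1, Hk2, Gpi1, Pfkl, Pfkp, Aldoa, Aldoc, Tpi1, Gapdh, Pgk1, Pgam1, Eno1, Pkm, Ldha, Pdk1, Gys1 and Gbe1. Their adjusted p was at most 4.93e-08 in WT and 4.21e-09 in TAZKo cells. The other two in WT were Eno2, which stood at log2 0.997 in TAZKo cells, and Pygl. Every step from uptake to lactate had at least 1 of these genes, while the pentose phosphate members did not reach that size.

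**Figure D1:**
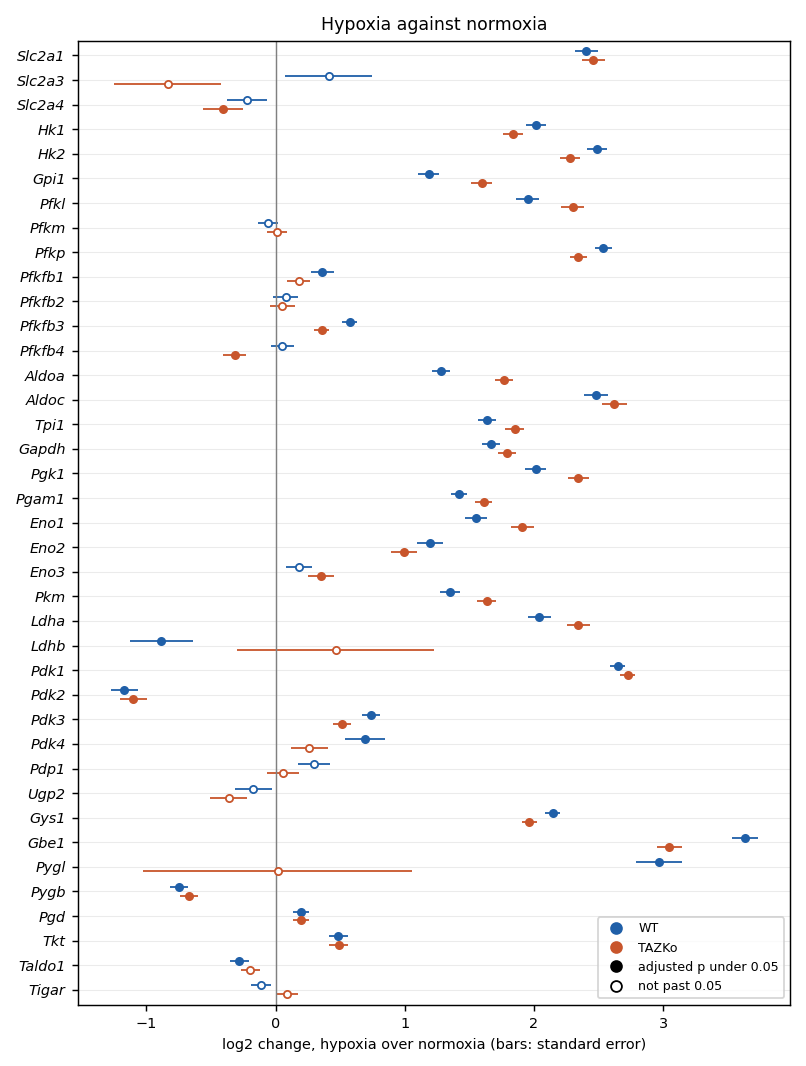
Log2 change in hypoxia over normoxia of the 39 tested members, ordered by step, for WT (blue) and TAZKo (orange), with bars for the standard error and filled points where the adjusted p was under 0.05. The 18 shared large rises lie to the right of 1 in both colours, and Pdk2 and Pygb lie left of 0 in both.

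Changes that ran against the rise were few. Pdk2 and Pygb fell in both genotypes, Ldhb and Taldo1 in WT, and Slc2a4 and Pfkfb4 in TAZKo cells. Slc2a3, Pfkm, Pfkfb2, Pdp1, Ugp2 and Tigar passed the test in neither. Several steps thus held an isoform that rose beside another that did not, and these are taken in turn.

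Slc2a1 made nearly all of the transporter transcript. It stood at 170.1, 148 and 142 CPM in WT normoxia, 901, 746 and 796 in WT hypoxia, 129.96, 124 and 119 in TAZKo normoxia and 709.6, 705 and 632 in TAZKo hypoxia. The hypoxic libraries lay far above the normoxic ones with no overlap, a 5.31-fold rise in WT (log2 2.41, SE 0.0879, adjusted p = 1.17e-10) and a 5.5-fold rise in TAZKo cells (log2 2.46, SE 0.0882, adjusted p = 1.36e-10). Per kilobase of merged exons, Slc2a1 made 98.2% ± 0.196 (SD, n = 3) of the summed level of the 3 transporters in WT normoxia and 99.7% ± 0.0325 in WT hypoxia. The neuronal transporter Slc2a3 was at the edge of detection, at 0.486, 0.263 and 0.29 CPM in WT normoxia, 0.5, 0.359 and 0.509 in WT hypoxia, 0.21, 0.26 and 0.401 in TAZKo normoxia and 0.194, 0.173 and 0.139 in TAZKo hypoxia. Its lowest values were in TAZKo hypoxia, where 13 reads were counted against 32 in WT hypoxia, a ratio of WT to TAZKo of 2.76 (95% counting interval 1.41 to 5.73). Slc2a4, the insulin-responsive transporter of muscle and fat, averaged 2.61 and 2.26 CPM in WT and 2.65 and 1.99 CPM in TAZKo normoxia and hypoxia. Its fall in TAZKo cells was a log2 change of -0.41 (SE 0.154, adjusted p = 0.0454), and that call was lost without any 1 of the TAZKo libraries except hypoxia library 2. The DESeq2 Wald test, the fit with no filter and the fit with the lane as a covariate also lost it (log2 -0.46 to -0.37 in all settings that lost it). The WT value of -0.22 did not pass (adjusted p = 0.25).

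Both hexokinases, which trap glucose as glucose 6-phosphate, rose. Hk1 stood at 121, 102 and 96.1 CPM in WT normoxia, 442, 413 and 436 in WT hypoxia, 147, 146 and 142 in TAZKo normoxia and 526, 539 and 489 in TAZKo hypoxia. Hk2 stood at 36.6, 37.8 and 34.1 CPM in WT normoxia, 187, 205 and 216 in WT hypoxia, 33.7, 36.6 and 31 in TAZKo normoxia and 160.1, 171 and 161 in TAZKo hypoxia. Hypoxic and normoxic libraries did not overlap for either gene in either genotype, with rises of log2 2.02 and 1.84 for Hk1 and 2.49 and 2.28 for Hk2 in WT and TAZKo cells. The share of Hk2 per kilobase of the pair went from 32.8% ± 2.32 to 40.2% ± 2.17 (SD, n = 3) in WT and from 24.9% ± 1.28 to 31.2% ± 0.833 in TAZKo cells. Hk1 remained the more abundant of the pair per kilobase in all 4 groups. Its share in TAZKo libraries lay above that in WT libraries in normoxia (73.7 to 76.2% against 65.4 to 69.8%) and in hypoxia (68 to 69.7% against 58.5 to 62.3%).

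Gpi1, which turns glucose 6-phosphate into fructose 6-phosphate, stood at 335, 276 and 284 CPM in WT normoxia, 740.0, 632 and 664 in WT hypoxia, 201, 194 and 186 in TAZKo normoxia and 598, 598 and 562 in TAZKo hypoxia. Both hypoxic groups were above both normoxic groups, and the TAZKo libraries were below the WT libraries in each condition. The rise was log2 1.18 (SE 0.0796) in WT and 1.60 (SE 0.0806) in TAZKo cells.

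The 3 isoforms of phosphofructokinase, the committed step of glycolysis, moved apart. Pfkl, the liver isoform, stood at 328, 262 and 247 CPM in WT normoxia, 1111, 1044 and 1085 in WT hypoxia, 268, 271 and 249.6 in TAZKo normoxia and 1349, 1307 and 1224 in TAZKo hypoxia. Pfkp, the platelet isoform, stood at 126, 112 and 108 CPM in WT normoxia, 699.8, 648 and 661 in WT hypoxia, 125, 127 and 119 in TAZKo normoxia and 628, 649 and 608 in TAZKo hypoxia. Neither gene had overlapping normoxic and hypoxic libraries, with log2 rises of 1.95 and 2.30 for Pfkl and 2.54 and 2.34 for Pfkp in WT and TAZKo cells. Pfkm, the muscle isoform, stood at 183 to 216 CPM in WT normoxia, 176 to 207 in WT hypoxia, 181 to 194 in TAZKo normoxia and 181 to 196 in TAZKo hypoxia. Its libraries overlapped in every comparison, with log2 values of -0.06 (SE 0.0776, adjusted p = 0.569) in WT and 0.01 (SE 0.0775, adjusted p = 0.911) in TAZKo cells. Pfkm went from 53.8% ± 1.22 to 20.9% ± 1.09 (SD, n = 3) of the step per kilobase in WT and from 53.4% ± 0.889 to 18.9% ± 0.29 in TAZKo cells. Pfkl went from 38.3% ± 1.47 to 60.4% ± 1.07 in WT and from 37.7% ± 0.745 to 65.3% ± 0.45 in TAZKo cells, and the summed step rose from 109 ± 12.6 to 268 ± 11.4 CPM per kilobase and from 104 ± 3.61 to 297 ± 12.6. Which isoform led in normoxia depended on the gene length used. By merged exons it was Pfkm, and by the longest transcript it was Pfkl, at 47.9% against 43.6% for Pfkm in WT and 47.2% against 43.3% in TAZKo normoxia. Pfkl led in hypoxia by both. Muscle markers were low: of 8, only Des reached 1 CPM in each group, the list summed to between 3.5 and 10.6 CPM in any library, and Myod1 was at 0 in all 12. The part of such cells in the level of Pfkm was not tested.

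The 4 bifunctional enzymes that make or remove fructose 2,6-bisphosphate, the activator of phosphofructokinase, each differed by less than 2-fold between hypoxia and normoxia. Pfkfb3, the isoform with the highest ratio of kinase to phosphatase activity, was the most abundant per kilobase. It averaged 87.8 ± 1.19 CPM in WT normoxia, 131 ± 6.26 under WT hypoxia, 72.9 ± 4.34 in TAZKo normoxia and 93.4 ± 1.58 in TAZKo hypoxia (SD, n = 3). It rose by log2 0.57 (SE 0.059, adjusted p = 2.94e-06) in WT and 0.36 (SE 0.0592, adjusted p = 0.000278) in TAZKo cells. Its share of the 4 per kilobase went from 59.8% ± 1.59 to 66.3% ± 1.34 (SD, n = 3) in WT and from 54.7% ± 1.93 to 62.1% ± 0.25 in TAZKo cells. Pfkfb4, which is known elsewhere as a hypoxia-responsive isoform, had no called rise: it averaged 17 and 17.6 CPM in WT normoxia and hypoxia (log2 0.05, adjusted p = 0.65) and 19.4 and 15.6 CPM in TAZKo cells, where it fell (log2 -0.32, adjusted p = 0.00897). Pfkfb1 rose in WT by log2 0.36 (adjusted p = 0.00319; with no filter on low counts 0.29, adjusted p = 0.0547), while its TAZKo value of 0.18 did not pass (adjusted p = 0.119). Pfkfb2 averaged 12.7 and 13.4 CPM in WT and 13.4 and 13.9 in TAZKo normoxia and hypoxia, with no call.

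Aldolase splits fructose 1,6-bisphosphate, and both of its isoforms here rose. Aldoa, the main isoform, stood at 812, 676 and 669 CPM in WT normoxia, 1821, 1684 and 1733 in WT hypoxia, 533, 552 and 544 in TAZKo normoxia and 1849.6, 1869 and 1836 in TAZKo hypoxia. Its hypoxic libraries were all above the normoxic ones, and the TAZKo libraries lay below WT in normoxia and above WT in hypoxia. Aldoc, the isoform best known from brain, stood at 48.2, 37.5 and 42.2 CPM in WT normoxia, 251, 229 and 234 in WT hypoxia, 29.98, 30.2 and 36.3 in TAZKo normoxia and 199.7, 205 and 190.3 in TAZKo hypoxia. Its rise was the steeper of the pair, at log2 2.48 (SE 0.0958) against 1.28 (SE 0.0702) for Aldoa in WT and 2.62 (SE 0.0968) against 1.77 (SE 0.0712) in TAZKo cells. Aldoc went from 5.02% ± 0.309 to 10.8% ± 0.0945 (SD, n = 3) of the pair per kilobase in WT and from 5.02% ± 0.523 to 8.72% ± 0.229 in TAZKo cells. In both genotypes no hypoxic share overlapped a normoxic one.

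The middle of the pathway, 4 enzymes that each have 1 gene here, all rose. Tpi1, triose phosphate isomerase, stood at 664, 574 and 565 CPM in WT normoxia, 1988, 1856 and 1772 in WT hypoxia, 452, 450.0 and 420.2 in TAZKo normoxia and 1639, 1599.9 and 1530.5 in TAZKo hypoxia. Gapdh, which oxidises glyceraldehyde 3-phosphate and is often used as a reference transcript, stood at 98.3, 85.6 and 88.8 CPM in WT normoxia, 291, 287 and 288 in WT hypoxia, 76.2, 67.6 and 69.3 in TAZKo normoxia and 230.0, 252 and 257 in TAZKo hypoxia. All hypoxic libraries lay above all normoxic ones for both, so Gapdh was 3.17-fold higher in WT and 3.47-fold higher in TAZKo hypoxia on the reads counted for it (log2 1.67, SE 0.0698, adjusted p = 4.81e-10; log2 1.79, SE 0.0702, adjusted p = 2.93e-10). Pgk1, which makes the first ATP of the pathway, stood at 34.1, 41.5 and 37.5 CPM in WT normoxia, 157, 154 and 147 in WT hypoxia, 33.6, 29.8 and 31.4 in TAZKo normoxia and 171, 164 and 147 in TAZKo hypoxia. Pgam1, phosphoglycerate mutase, stood at 24.8, 25.6 and 24.6 CPM in WT normoxia, 67.8, 66.7 and 66.1 in WT hypoxia, 18.1, 18.2 and 15.8 in TAZKo normoxia and 51.4, 53.4 and 54.1 in TAZKo hypoxia. Pgk1 rose by log2 2.02 and 2.34 and Pgam1 by 1.42 and 1.61 in WT and TAZKo cells, again with no overlap. Tpi1 rose by log2 1.64 and 1.85.

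**Figure D2:**
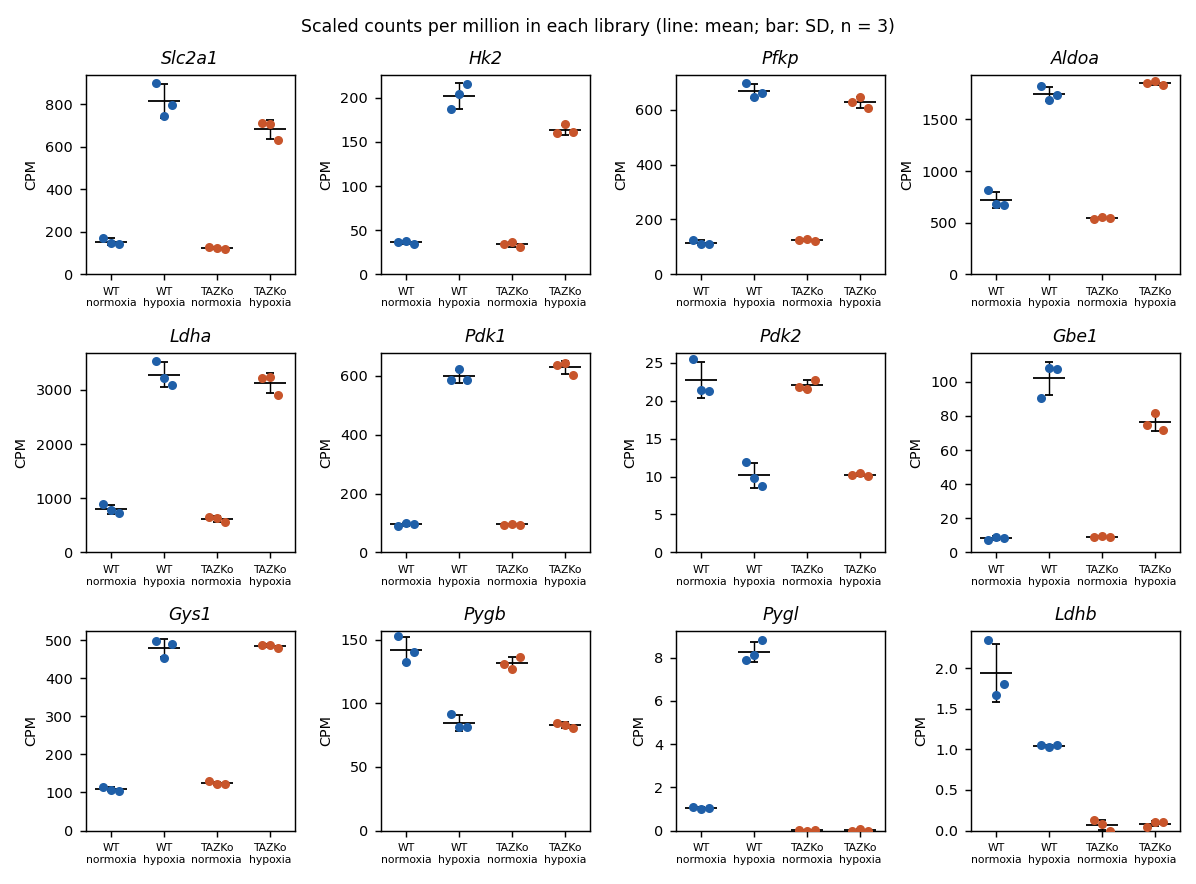
Scaled CPM in each of the 12 libraries for 12 members, each panel with its own linear axis from 0, points for libraries, lines for group means and bars for the SD (n = 3). Slc2a1, Hk2, Pfkp, Aldoa, Ldha, Pdk1, Gbe1 and Gys1 are high in hypoxia in both genotypes, Pdk2 and Pygb are low there, and Pygl and Ldhb lie near 0 in the TAZKo libraries.

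Enolase, which makes phosphoenolpyruvate, has a ubiquitous isoform, Eno1, and 2 that are best known from neurons and muscle. Eno1 stood at 419, 348 and 341 CPM in WT normoxia, 1164, 1044 and 1037 in WT hypoxia, 319, 319.7 and 291 in TAZKo normoxia and 1215, 1205 and 1076 in TAZKo hypoxia. Eno2, the neuronal isoform, was low at 9.46, 7.89 and 8.47 CPM in WT normoxia, 22.3, 19.8 and 17.3 in WT hypoxia, 8.53, 7.97 and 8.68 in TAZKo normoxia and 16.5, 16.5 and 17.4 in TAZKo hypoxia. Both rose without overlap, Eno1 by log2 1.55 (SE 0.086) and 1.91 (SE 0.0869) and Eno2 by 1.20 (SE 0.102) and 0.997 (SE 0.101) in WT and TAZKo cells. Eno3, the muscle isoform, averaged 86.1 and 97.8 CPM in WT normoxia and hypoxia and 80.3 and 102 CPM in TAZKo cells. Its WT libraries overlapped (log2 0.18, adjusted p = 0.149). A WT call appeared without WT normoxia library 1 (log2 0.28, adjusted p = 0.0221) and with the replicate block (log2 0.18, adjusted p = 0.0349), and the TAZKo rise of log2 0.35 (adjusted p = 0.0128) was lost without TAZKo hypoxia library 1 or 2 or TAZKo normoxia library 2 or 3 (log2 0.25 to 0.31 in the settings that lost it). Of the reads counted for the step per kilobase of merged exons, Eno3 went from 41.3% ± 0.278 to 21.4% ± 1.38 (SD, n = 3) in WT and from 43.7% ± 1.26 to 21.1% ± 0.485 in TAZKo cells. By the longest transcript it went from 22.9% to 10.3% and from 24.8% to 10.1%, and since Eno1 shares most of its words with other genes, an unknown part of its reads may be missing from both sets of shares. Of 5 neuronal markers only Tubb3 reached 1 CPM, and the list summed to 33.9 to 40.5 CPM in WT normoxia, 45.2 to 61.3 in WT hypoxia, 22.7 to 28.2 in TAZKo normoxia and 35.1 to 37.3 in TAZKo hypoxia. That sum was higher in hypoxia, as Eno2 and Aldoc were, and its part in them was not tested.

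Pyruvate kinase and lactate dehydrogenase A end the route to lactate. Pkm, whose spliced forms M1 and M2 cannot be told apart in gene counts, stood at 1601, 1353 and 1327 CPM in WT normoxia, 3861, 3569.8 and 3477 in WT hypoxia, 1084, 1091 and 1022 in TAZKo normoxia and 3345, 3453 and 3118 in TAZKo hypoxia. Ldha stood at 887, 773 and 729 CPM in WT normoxia, 3537, 3210.3 and 3098 in WT hypoxia, 654, 637 and 556 in TAZKo normoxia and 3226, 3234 and 2911 in TAZKo hypoxia. Ldha was 4.12-fold higher in WT hypoxia (log2 2.04, SE 0.0885, adjusted p = 6.14e-10) and 5.07-fold higher in TAZKo hypoxia (log2 2.34, SE 0.0894, adjusted p = 2.3e-10), with no overlap between conditions. The rise of Pkm was log2 1.35 in WT and 1.63 in TAZKo cells, also with no overlap. Ldhb, the subunit that favours the oxidation of lactate, was barely expressed, at 2.34, 1.67 and 1.81 CPM in WT normoxia, 1.05, 1.03 and 1.05 in WT hypoxia, 0.126, 0.0866 and 0 in TAZKo normoxia and 0.0486, 0.104 and 0.104 in TAZKo hypoxia. Its WT libraries fell from 53, 38 and 50 counts in normoxia to 21, 23 and 29 in hypoxia (log2 -0.88, SE 0.246, adjusted p = 0.00836). TAZKo libraries held only 3, 2 and 0 counts in normoxia and 1, 3 and 3 in hypoxia, and no hypoxia fold is read from so few. Ldha made 99.5% ± 0.0517 (SD, n = 3) of the 2 subunits per kilobase in WT normoxia and more in the other 3 groups.

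Among the 4 pyruvate dehydrogenase kinases, which silence pyruvate dehydrogenase by phosphorylation, Pdk1 rose and Pdk2 fell under hypoxia in both genotypes. Pdk1 stood at 90.4, 99.4 and 96.3 CPM in WT normoxia, 585, 624 and 586 in WT hypoxia, 94.5, 96.1 and 94.6 in TAZKo normoxia and 637, 645 and 604 in TAZKo hypoxia. Pdk2 stood at 25.5, 21.4 and 21.3 CPM in WT normoxia, 11.9, 9.77 and 8.76 in WT hypoxia, 21.8, 21.5 and 22.8 in TAZKo normoxia and 10.2, 10.5 and 10.1 in TAZKo hypoxia. For each of the pair, hypoxic and normoxic libraries were fully separate, Pdk1 rising 6.27-fold in WT (log2 2.65, SE 0.0579, adjusted p = 1.01e-12) and 6.61-fold in TAZKo cells (log2 2.73, SE 0.058, adjusted p = 6.24e-13). Pdk2 was 2.25-fold lower in WT hypoxia (log2 -1.17, SE 0.106, adjusted p = 9.15e-07) and 2.15-fold lower in TAZKo hypoxia (log2 -1.10, SE 0.105, adjusted p = 2.15e-06). Pdk2 was the only member with a called fall of at least 2-fold in hypoxia in either genotype, where 3.03% and 2.06% of all genes in WT and TAZKo cells had one. Pdk3 averaged 83.1 and 139 CPM in WT and 76.8 and 109.7 CPM in TAZKo normoxia and hypoxia, a rise of log2 0.74 (adjusted p = 1.36e-06) and 0.51 (adjusted p = 5.65e-05). Pdk4, the isoform known for fasting and fatty acid use, rose in WT from a mean of 6.74 to 10.9 CPM (log2 0.70, adjusted p = 0.00203), while the change from 11.3 to 13.5 CPM in TAZKo cells did not pass (adjusted p = 0.165).

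Read per kilobase, the leading kinase gene changed from Pdk3 to Pdk1. Pdk3 went from 60.2% ± 2.22 (SD, n = 3) of the 4 to 39.4% ± 0.551 with hypoxia in WT, and from 57.2% ± 0.891 to 32.7% ± 0.445 in TAZKo cells. Pdk1 went from 22.8% ± 0.306 to 56% ± 0.44 in WT and from 23.3% ± 0.377 to 61.8% ± 0.117 in TAZKo cells. Pdk2 dropped from 13.4% ± 2.25 to 2.34% ± 0.383 and from 13.3% ± 0.518 to 2.48% ± 0.0457. The summed level of the 4 went from 53.8 ± 3.13 to 137 ± 4.91 CPM per kilobase in WT and from 52.4 ± 0.611 to 131 ± 4.64 in TAZKo cells. Pdp1, the phosphatase that undoes their action, averaged 7.76 and 9.56 CPM in WT and 9.81 and 10.2 in TAZKo normoxia and hypoxia, with no call in either (log2 0.30 and 0.06, adjusted p = 0.0627 and 0.734). With the replicate block the WT value was called (log2 0.30, adjusted p = 0.0267).

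**Figure D3:**
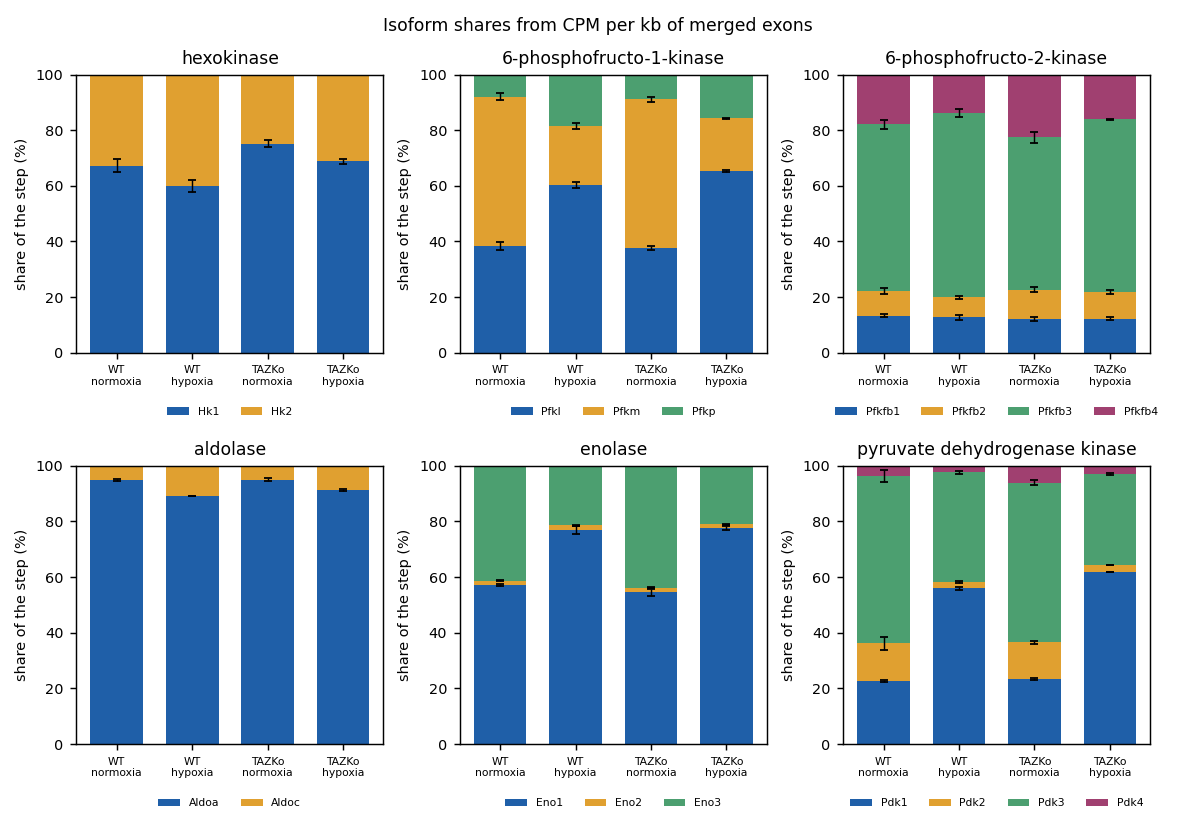
Share of each isoform in the summed CPM per kilobase of its step, in percent, as group means of 3 libraries, for 6 steps with at least 2 isoforms. Error bars are the SD of the share of the isoform whose upper edge they mark, and the top isoform has none. Pfkm, Eno3 and Pdk3 take a smaller part in hypoxia and Pfkl, Eno1 and Pdk1 a larger one, in WT and TAZKo alike.

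Across the steps with several isoforms, 18 isoforms had hypoxic shares that did not overlap the normoxic ones in both genotypes. Those higher in hypoxia were Slc2a1, Hk2, Pfkl, Pfkp, Pfkfb3, Aldoc, Eno1 and Pdk1, and those lower were Slc2a3, Slc2a4, Hk1, Pfkm, Pfkfb4, Aldoa, Eno3, Pdk2, Pdk3 and Pdk4. The remaining isoforms, Pfkfb1, Pfkfb2, Eno2, Ldha, Ldhb, Pygl and Pygb, overlapped in WT, TAZKo or both. No matching count was made outside these steps, so the 18 are a description. Shares within a step sum to 100%, so the rise of an isoform and the drop of its partner are the same fact. Hk1, Aldoa and Pdk3 lost share while their own levels rose. The count was 19 with the longest transcript as the length of a gene, and the shares of Hk2 and Aldoc were then lower. Hk2 went from 21% to 26.8% in WT and from 15.3% to 19.7% in TAZKo cells, and Aldoc from 3.19% to 7.04% and from 3.19% to 5.62%.

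Both genes of glycogen polymerisation rose. Gys1, the muscle-type glycogen synthase, stood at 115, 106 and 105 CPM in WT normoxia, 497, 452 and 491 in WT hypoxia, 129, 122 and 123 in TAZKo normoxia and 488, 488 and 480.4 in TAZKo hypoxia. Gbe1, the branching enzyme, stood at 6.98, 9.03 and 8.61 CPM in WT normoxia, 90.8, 108 and 107 in WT hypoxia, 9.21, 9.31 and 9.11 in TAZKo normoxia and 74.9, 81.9 and 71.9 in TAZKo hypoxia. No hypoxic library of either gene fell among the normoxic ones, and Gbe1 had the largest called rise of all members in TAZKo and WT cells, 12.4-fold in WT (log2 3.63, SE 0.102, adjusted p = 8.99e-12) and 8.28-fold in TAZKo cells (log2 3.05, SE 0.0996, adjusted p = 5.6e-11). Its promoter window above held neither motif, and neither did those of Gys1, Gpi1 and Tpi1. Gys1 rose by log2 2.15 (SE 0.0595) in WT and 1.96 (SE 0.0591) in TAZKo cells. Ugp2, which supplies UDP-glucose to the synthase, averaged 158 and 140.1 CPM in WT and 159 and 124 in TAZKo normoxia and hypoxia, with no call (log2 -0.17 and -0.36, adjusted p = 0.334 and 0.0541). Without WT normoxia library 1 the WT value of Ugp2 was -0.38 (adjusted p = 7.21e-05), a fall.

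The phosphorylases, which release glucose from glycogen, split. Pygb, the brain isoform and the main one in these cells, went from a mean of 142 ± 10.4 CPM (SD, n = 3) to 84.7 ± 6.1 with hypoxia in WT, and from 132 ± 4.96 to 82.8 ± 2.26 in TAZKo cells. It fell in both, with log2 changes of -0.75 (SE 0.0692, adjusted p = 1.12e-06) in WT and -0.67 (SE 0.0691, adjusted p = 4.56e-06) in TAZKo cells, with no overlap of libraries. Pygl, the liver isoform, stood at 1.1, 1.01 and 1.05 CPM in WT normoxia, 7.9, 8.11 and 8.8 in WT hypoxia, 0.042, 0 and 0.0309 in TAZKo normoxia and 0, 0.0691 and 0 in TAZKo hypoxia. WT hypoxia libraries were clearly the highest, with 581 reads in all against 77 in WT normoxia, a ratio of 7.9 (95% counting interval 6.22 to 10.2; log2 2.97, adjusted p = 1.92e-08). TAZKo libraries held at most 2 reads each in either condition, under the floor, so no fold in hypoxia is given for them. In WT hypoxia Pygl made 6.4% ± 0.686 (SD, n = 3) of the 2 phosphorylases per kilobase, up from 0.516% ± 0.0139, and Pygb the rest (by the longest transcript, 10.8% and 0.914%).

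No pentose phosphate member changed by 2-fold in hypoxia. Tkt, transketolase, averaged 326 and 455 CPM in WT and 250.1 and 351 in TAZKo normoxia and hypoxia and rose by log2 0.48 (adjusted p = 9.78e-05) and 0.49 (adjusted p = 0.000123). Pgd, phosphogluconate dehydrogenase, moved by log2 0.19 (adjusted p = 0.0171) and 0.20 (adjusted p = 0.018), calls lost in 11 and 5 of 12 fits that left out 1 library (log2 0.09 to 0.16 and 0.10 to 0.19 in the settings that lost them). Taldo1, transaldolase, fell in WT, with a log2 change of -0.28 (adjusted p = 0.00717) and stood at -0.20 in TAZKo cells (adjusted p = 0.0513). Tigar, a phosphatase that turns flux back toward this branch, had values of -0.11 and 0.09 with no call.

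Between the genotypes the members differed by less, and mostly in 1 direction. In normoxia 22 of 39 were called, with 3 up and 19 down in those labelled TAZKo, or 56.4%, where 30.4% of all genes were called (15.6% higher, 14.9% lower). In hypoxia 17 were called, 2 higher and 15 lower, or 43.6%, against 32.8% of all genes (15.8% higher, 16.9% lower). The median member stood at log2 -0.18 in normoxia and -0.17 in hypoxia, with 0.01 and -0.01 over all genes. Leaving out each library in turn gave 3349 to 4961 calls over all genes in normoxia, against 4384 in the main fit. Without WT normoxia library 1 the normoxic calls of members were 5 higher and 19 lower. Eno1 (log2 -0.15, adjusted p = 0.101) and Taldo1 (log2 -0.16, adjusted p = 0.0714) were then no longer among them, and Pdk3 and Ugp2 were lower and Pfkp and Pfkfb4 higher. With the replicate block Pdp1 was also called higher in normoxia (log2 0.34, adjusted p = 0.0207, against 0.34 and 0.055 without it).

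Lower in TAZKo in both conditions were 11 members: Slc2a1, Pfkfb1, Pfkfb3, Aldoc, Tpi1, Gapdh, Pgam1, Ldhb, Pygl, Pgd and Tkt. Of all genes 14.9% were lower in normoxia and 16.9% in hypoxia. The share of all genes lower in both was not counted, so the 11 are a list only. Apart from the nearly silent Ldhb and Pygl these were modest. Slc2a1 differed by log2 -0.31 (SE 0.0846, adjusted p = 0.0139) in normoxia and -0.26 (SE 0.0832, adjusted p = 0.0305) in hypoxia. Tkt differed by log2 -0.38 (adjusted p = 0.00143) and -0.37 (adjusted p = 0.00153). Pgam1, at log2 -0.53 (adjusted p = 4.83e-05) and -0.34 (adjusted p = 0.000966), lies on chromosome 19, whose 492 tested genes had medians -0.28 and -0.27 from that of all genes. Pfkfb3, on chromosome 2, differed by log2 -0.27 (adjusted p = 0.00362) in normoxia and -0.48 (adjusted p = 3.42e-05) in hypoxia. The medians of chromosome 2 lay 0.02 and 0.03 from that of all genes. Whether a shift along the chromosome had a part in the difference of either gene was not tested. The hypoxic call of Aldoc was lost without any 1 of the 6 hypoxic libraries (log2 -0.29 to -0.24), and those of Slc2a1 (log2 -0.21 to -0.19) and Tpi1 (log2 -0.22 to -0.20) without TAZKo hypoxia library 3 or WT hypoxia library 1. Gapdh lost its hypoxic call without TAZKo hypoxia library 1 (log2 -0.19), and Pfkfb1 its normoxic call without TAZKo normoxia library 2 or 3 or WT normoxia library 3 (log2 -0.30 to -0.26 in the settings that lost it). Pfkfb1 also lost that call with no filter and when only the 6 normoxic libraries were fitted.

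Called lower in normoxia but not in hypoxia were Gpi1, Aldoa, Pgk1, Eno1, Pkm, Ldha, Taldo1 and Tigar. Gpi1 had the largest of these differences, log2 -0.62 (SE 0.0792, adjusted p = 5.04e-05) in normoxia, and its hypoxic value was -0.21 (adjusted p = 0.0534). Pkm stood at -0.42 (adjusted p = 0.000757) and -0.14 (adjusted p = 0.181), and Ldha at -0.37 (adjusted p = 0.0048) and -0.07 (adjusted p = 0.568). Eno1 and Taldo1 also lost their calls without TAZKo normoxia library 3, and Pgk1 without TAZKo normoxia library 2 or 3 or WT normoxia library 2 (log2 -0.29 to -0.22 in the settings that lost it). Called lower in hypoxia but not in normoxia were Slc2a3, Hk2, Pdk3 and Gbe1. Whether the difference itself changed with oxygen is the interaction given further on, and among these 12 genes it passed for Aldoa and Gbe1. With the replicate block it also passed for Eno1, Gpi1 and Ldha, whose values are given there.

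Higher in TAZKo were Hk1 in both conditions (log2 0.45, adjusted p = 0.000589; log2 0.27, adjusted p = 0.0146), Pdk4 and Gys1 in normoxia and Pfkl in hypoxia (log2 0.26, adjusted p = 0.036). Both Hk1 and Pfkl lie on chromosome 10, whose 676 tested genes had medians 0.30 above that of all genes in normoxia and 0.29 above it in hypoxia. Pfkl in normoxia stood at log2 -0.09 (adjusted p = 0.497). The part of a shift along the chromosome in them was not tested. Pdk4 was higher by log2 0.73 (SE 0.154, adjusted p = 0.00263) in normoxia, the largest called excess among the members. The Gys1 excess, log2 0.20 (adjusted p = 0.0187), was lost in 8 of 12 fits that left out 1 library (log2 0.14 to 0.20 in the settings that lost it). It was also lost with no filter and when only the 6 normoxic libraries were fitted. Leaving out 1 library also ended the hypoxic call of Pfkl in 7 of 12 fits (log2 0.22 to 0.27) and that of Hk1 without TAZKo hypoxia library 1 or 2 or WT hypoxia library 2 (log2 0.23 to 0.25). Pdk1 and Pdk2, the 2 kinases that moved most with oxygen, differed by no more than log2 0.07 between genotypes in hypoxia and had no genotype call.

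**Figure D4:**
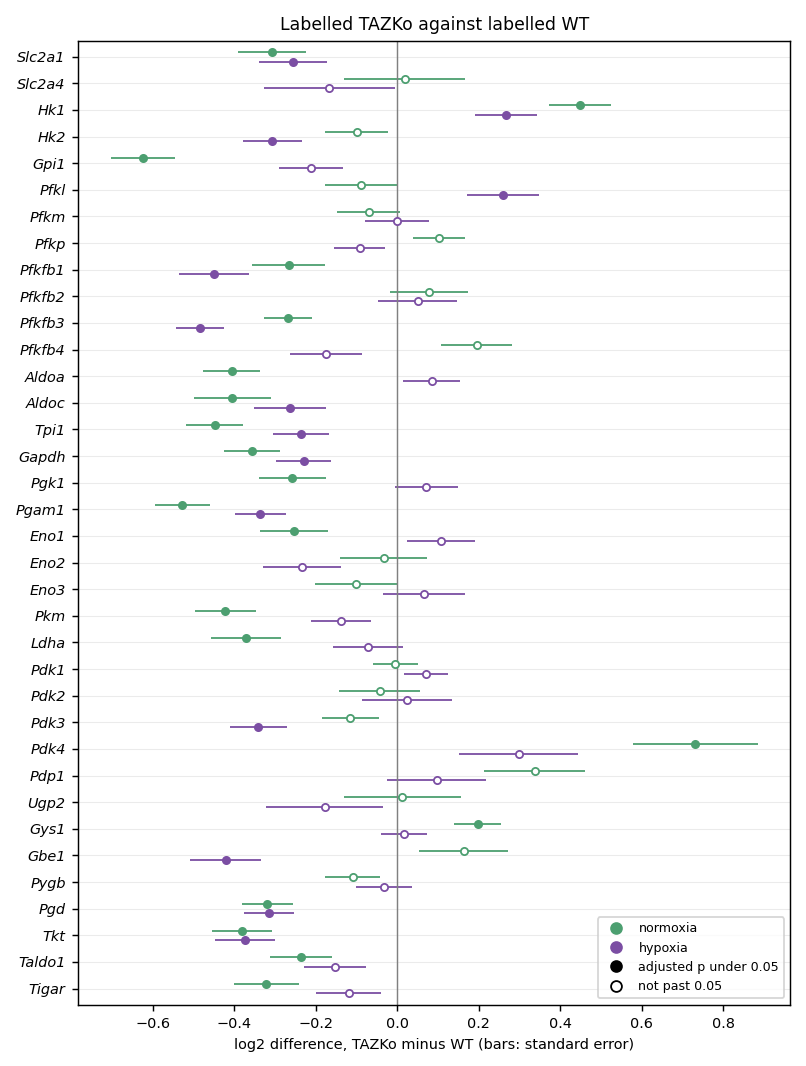
Log2 difference of the libraries labelled TAZKo minus WT for 36 tested members (Ldhb, Pygl and Slc2a3, with very few reads, are left out), in normoxia (green) and hypoxia (purple), with bars for the standard error and filled points where the adjusted p was under 0.05. Most filled points lie left of 0, and Hk1 lies right of 0 in both conditions.

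The 2 genes with the widest genotype gap were low in all cells. Both passed the filter on low counts only through WT libraries, where they are higher. The adjusted p-values here therefore describe the gap and are no independent support for it. Ldhb had 5 reads in the 3 TAZKo normoxia libraries and 141 in WT, a ratio of WT to TAZKo of 30.6 (95% counting interval 12.8 to 95.7; adjusted p = 1.26e-06). In hypoxia it had 7 against 73, a ratio of 11.7 (5.39 to 30.1; adjusted p = 4.01e-05). Every WT library thus had more Ldhb than any TAZKo library of the same condition. Pygl had 2 reads against 77 in normoxia, a ratio of 41.8 (11.2 to 351; adjusted p = 3.2e-06), and 2 against 581 in hypoxia, a ratio of 326 (89.7 to 2695; adjusted p = 1.11e-09). Its window above held ACGTG 131 bases before the start, and that of Ldhb held GCGTG 126 bases before it.

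The change of response between genotypes was tested as an interaction, the hypoxia change in TAZKo minus that in WT. It called 2 of 39 members, 1 higher and 1 lower, or 5.13%, against 2.43% of all genes (0.722% higher, 1.71% lower). An unadjusted p under 0.05 was found for 14 of the 39, against 2273 of all 14408 genes. Aldoa rose by more in TAZKo cells: from a mean of 543 ± 9.42 to 1851 ± 16.6 CPM, against 719 ± 80.7 to 1746 ± 69.5 in WT (SD, n = 3), a difference of log2 0.49 (SE 0.0978, adjusted p = 0.0182). Gbe1 rose by less: from 9.21 ± 0.1 to 76.3 ± 5.12 CPM against 8.21 ± 1.08 to 102 ± 9.77, a difference of log2 -0.58 (SE 0.138, adjusted p = 0.044). With the replicate block 5 members were called, adding Eno1 (log2 0.36, adjusted p = 0.0269), Gpi1 (log2 0.41, adjusted p = 0.0137) and Ldha (log2 0.30, adjusted p = 0.0372), and with no filter on low counts 7. Over all genes these settings called 639 and 727, against 350. When 1 library was left out, Aldoa kept its call in all 12 fits (adjusted p 0.00282 to 0.0445) and Gbe1 lost it in 9 of 12 (0.0151 to 0.145). Without WT normoxia library 1 there were 5 member calls, Hk1, Pgk1 and Pfkfb4 joining these 2 genes, and 556 calls over all genes. Pygl, with at most 2 reads in any TAZKo library, had a fitted difference of log2 -2.95 with an SE of 1.36 (adjusted p = 0.341).

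Other genes of the pathway, in lists also chosen with results known, are read against the 51.0% of all genes called in WT hypoxia (26.0% higher, 25.0% lower) and the 43.8% called in TAZKo hypoxia (22.2% higher, 21.6% lower). Of 12 tested genes of glycolysis and gluconeogenesis outside the members, 6 rose and 4 fell in WT hypoxia and 6 rose and 3 fell in TAZKo hypoxia. Pgm1 (ENSMUSG00000025791), phosphoglucomutase, which links glucose 6-phosphate to glycogen, went from 106 ± 5.85 to 547 ± 12.2 CPM (SD, n = 3) in WT and from 80.0 ± 1.38 to 523 ± 20.4 in TAZKo cells, and Pgam2 and Gapdhs, low genes at up to 6.3 and 1.96 CPM, also rose over 2-fold. All 3 tested genes of lactate transport rose in TAZKo and 2 of 3 in WT cells. They included the lactate exporter Slc16a3, from 363 ± 39.4 to 1415 ± 117 CPM in WT and 261 ± 15.1 to 1359.8 ± 60.9 in TAZKo cells, and its chaperone Bsg, from 507 ± 31.1 to 1989 ± 121 and 571 ± 13 to 2354 ± 79.5. The 9 other genes of pyruvate dehydrogenase, its phosphatase and pyruvate entry had 1 rise and 3 falls in WT and 2 and 3 in TAZKo cells. None was of 2-fold, where 51.0% and 43.8% of all genes were called.

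Of 16 further glycogen genes tested, 9 rose and 2 fell in WT hypoxia and 8 rose and 2 fell in TAZKo hypoxia. Epm2a, laforin, which removes phosphate from glycogen, went from 0.801 ± 0.128 to 8.66 ± 0.789 CPM (SD, n = 3) in WT (log2 3.42, adjusted p = 1.23e-09) and from 1.07 ± 0.229 to 7.55 ± 0.386 in TAZKo cells (log2 2.81, adjusted p = 7.39e-09). The glycogen-targeting phosphatase subunit Ppp1r3b rose by log2 1.76 and 1.76, and Ppp1r3e by 0.82 and 1.19, while the member of the same family, Ppp1r3c, was not detected beyond the floor. Pygm, muscle phosphorylase, was low and, like Pygl, lower in TAZKo than in WT hypoxia, at 0.84 ± 0.296 against 1.99 ± 0.419 CPM (log2 -1.30, adjusted p = 0.0036). In the pentose phosphate list 2 of 8 tested genes rose and 2 fell in each genotype, none by 2-fold, which is near the shares of all genes (26.0% higher and 25.0% lower in WT, 22.2% and 21.6% in TAZKo cells).

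Among 3 tested hexose transporters outside the members, 2 rose and 1 fell in each genotype, and Slc2a9, a urate transporter of this family, went from 0.952 ± 0.179 to 1.93 ± 0.388 CPM (SD, n = 3) in WT and from 2 ± 0.0697 to 4.49 ± 0.88 in TAZKo cells. Of 8 tested sensors and regulators 4 rose and 1 fell in WT hypoxia and 3 rose and 1 fell in TAZKo hypoxia, where 51.0% and 43.8% of all genes were called in either direction. Txnip, which restrains glucose uptake at the cell surface, rose from 14 ± 2.34 to 65.6 ± 13.9 CPM in WT and from 26.5 ± 3.89 to 56.8 ± 5.86 in TAZKo cells, a smaller change there (interaction log2 -1.14, adjusted p = 0.0167). Myc rose from 57.5 ± 7.45 to 178 ± 28.8 CPM in WT and from 70.3 ± 5.1 to 141 ± 5.38 in TAZKo cells. Hif1a, the oxygen-sensitive subunit of HIF-1, went from 245 ± 58.5 to 378 ± 7.25 CPM in WT (log2 0.63, adjusted p = 0.00207) and from 191 ± 26.2 to 272 ± 7.59 in TAZKo cells (log2 0.51, adjusted p = 0.0101). In hypoxia its transcript was lower in the libraries labelled TAZKo (log2 -0.48, adjusted p = 0.0183).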

How the data were processed

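RNA sequencing was analysed in 12 samples, 3 in each of 4 groups taken from the labels' genotype and condition. The authors deposited 1 table per sample of whole-number read counts per Ensembl gene, with no normalization recorded. Per the labels' protocols a TruSeq RNA kit of Illumina was used, and the build was mm10, per the submitters' processing notes. The aligner, the counter and how it handled reads with several matches are not given in the sources used here. Symbols, coordinates and exon lengths came from GENCODE M21 (GRCm38), which matched 48349 of the 48709 IDs.

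Counts were filtered with filterByExpr, which left 14408 genes, scaled by TMM and fitted over all 12 samples with edgeR 4.0.16 (limma 3.58.1, R 4.3.3), using glmQLFit and glmQLFTest with 1 coefficient per group. The standard error is the log2 change divided by the square root of F, and p-values were adjusted over all genes tested by Benjamini-Hochberg with a threshold of 0.05. Shares of isoforms used CPM per kilobase of merged exons and were not tested. Simulated counts were used to test the fit. With 3 libraries a group, total counts of 21039451 to 31204510 gave the depth stated in the report. Values in every library were printed for members with an adjusted p under 0.05 and an absolute log2 change of at least 1 in any contrast, or with a called interaction, and other genes of the pathway were named by the first of these limits, with Taz and Hif1a named as the genes of the label and the title and cell markers from fixed lists. Same-numbered libraries deviated together in each of the 3 pairs for hypoxia in WT, with correlations of 0.368, 0.204 and 0.152. They also did for genotype in normoxia (0.354, 0.149 and 0.228), and not in each for the other comparisons. In those 2 comparisons pairs of libraries 2 and 3 of unlike number also correlated, at 0.180 and 0.147 and at 0.112 and 0.116. Pairs of unlike number with library 1 were negative there. Deviations were taken from group means and cancel within a group. A positive pair of libraries 1 therefore by itself makes those pairs negative, and pairs among libraries 2 and 3 positive, on balance. Library 1 was on lane 4 and library 3 on lane 5 in every group. Library 2 was on lane 4 in both normoxia groups and on lane 5 in both hypoxia groups, so lane went partly with condition. Pairing by number, lane and library 1 standing apart therefore cannot be told apart. Values with the replicate number as a block are given for those 2 and the interaction where a call changed. Any pairing comes from the data, not from the labels. The members and lists were chosen with earlier results of these data known. Alternatives were DESeq2 1.42.0 size factors and its Wald test, library size alone, other filters, the replicate number or the lane as a covariate, only the 6 samples of a contrast, summed copies and leaving out each library.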

Additional observations from a re-analysis of the deposited data

Results flagged for a closer look

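The hypoxia response differed between the genotypes by the edgeR interaction test for 2 members. For Aldoa the log2 change in TAZKo minus that in WT was 0.49 (SE 0.0978, adjusted p = 0.0182), with all 3 TAZKo libraries below WT in normoxia and all 3 above WT in hypoxia. For Gbe1 it was -0.58 (SE 0.138, adjusted p = 0.044), with all 3 TAZKo libraries above WT in normoxia, where the genotype difference was not called, and all 3 below WT in hypoxia.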

How the results depend on the processing

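The calls under each alternative stayed within 1.5 times the main count except for the interaction. Members called for it numbered 2, against 5 with the replicate block and 7 with no filter, and 1 to 5 without each replicate in turn. All genes called for it numbered 350, against 548 in the DESeq2 Wald test, 639 with the replicate block, 727 with no filter and 174 to 711 without each replicate in turn. The block called Eno1, Gpi1, Ldha, Aldoa and Gbe1, and no filter also Pfkl and Pkm. Over all 18 same-numbered pairs the deviations correlated by 0.127 on average, from -0.0893 to 0.368. For hypoxia in WT and genotype in normoxia each same-numbered pair was positive, but so were pairs of unlike number that left out library 1. In those 2 comparisons the block added calls for Pdp1 in both and Eno3 in the first and changed no other member's call. Without each replicate in turn members called ran from 29 to 32 for hypoxia in WT, 25 to 30 in TAZKo, 17 to 24 for genotype in normoxia and 13 to 22 in hypoxia. All genes called ran from 6510 to 7680, 5366 to 7678, 3349 to 4961 and 3767 to 6149 in the same order. Of the member calls in these 4 comparisons, 28 of 30, 25 of 28, 17 of 22 and 11 of 17 held in every setting that tested them, which was not counted for all genes. Left-out libraries are among those settings, and the cause of the losses was not tested. Fitting only the 6 samples of the contrast also ended the call of Pgd for hypoxia in WT. Library size alone ended those of Pgd for hypoxia in both genotypes, Eno3 for hypoxia in TAZKo and Aldoc for genotype in hypoxia. No filter ended those of Pgd in both genotypes and Gapdh for genotype in hypoxia. DESeq2 size factors ended that of Pfkl for genotype in hypoxia. Low genes such as Ldhb, Pygl and Slc2a3 were left out by the filter on mean CPM, so their calls were not tried in that setting. With no TMM scaling the median log2 change over all genes shifted by -0.11 for hypoxia in WT, and the changes given are relative to the TMM scale. Depth limited Ldhb, Pygl, Slc2a3 and Ppp1r3c.

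Values that changed sign were log2 differences with no call in the main test. With DESeq2 size factors these were Pfkm -0.0010 for genotype in hypoxia. With library size alone these were Pfkfb2 -0.026 for hypoxia in WT, Pfkfb4 -0.056 for hypoxia in WT, Pfkfb2 -0.044 for hypoxia in TAZKo, Pdp1 -0.037 for hypoxia in TAZKo, Tigar -0.0045 for hypoxia in TAZKo, Pygl -0.065 for hypoxia in TAZKo, Pfkm -0.082 for hypoxia in TAZKo and Pdk1 0.0043 for genotype in normoxia. In the DESeq2 Wald test these were Pfkm -0.0010 for genotype in hypoxia. With no filter these were Pfkfb4 -0.025 for hypoxia in WT, Pygl -0.0064 for hypoxia in TAZKo, Pfkm -0.013 for hypoxia in TAZKo, Ugp2 -0.018 for genotype in normoxia, Slc2a4 -0.011 for genotype in normoxia and Pfkfb2 0.024 for the interaction. With the lane as a covariate these were Pygl -0.014 for hypoxia in TAZKo. Other sign changes came when 1 library was left out. For hypoxia in WT they ran from -0.012 to 0.076 for Pfkfb2, from -0.093 to 0.13 for Pfkfb4 and from -0.18 to 0.021 for Pfkm. For hypoxia in TAZKo they ran from -0.27 to 1.16 for Ldhb, from -0.058 to 0.10 for Pdp1, from -0.020 to 0.082 for Pfkfb2, from -0.046 to 0.011 for Pfkm and from -2.58 to 0.56 for Pygl. For genotype in normoxia they ran from -0.12 to 0.037 for Eno2, from -0.12 to 0.047 for Pdk2, from -0.011 to 0.10 for Pfkfb2, from -0.20 to 0.045 for Pfkl, from -0.15 to 0.0095 for Pfkm, from -0.57 to 0.12 for Slc2a3, from -0.028 to 0.026 for Slc2a4 and from -0.19 to 0.11 for Ugp2. For genotype in hypoxia they ran from -0.0096 to 0.18 for Eno3, from -0.030 to 0.029 for Gys1, from -0.083 to 0.14 for Pdk2, from -0.051 to 0.064 for Pfkm and from -0.069 to 0.016 for Pygb. For the interaction they ran from -0.019 to 0.21 for Pdk2, from -0.056 to 0.062 for Pfkfb2, from -0.0097 to 0.17 for Pfkm, from -0.055 to 0.064 for Pgd, from -0.028 to 0.15 for Slc2a1, from -0.27 to 0.0058 for Slc2a4, from -0.10 to 0.086 for Tkt and from -0.29 to 0.015 for Ugp2.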
